A study of Mus musculus with 48 samples.

Results

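The Ly6 family genes described here are 6 mouse genes, *Ly6c1*, *Ly6c2*, *Ly6a*, *Ly6e*, *Ly6d*, and *Ly6g*, out of 34586 genes in the count table. They were chosen by name, as a group of neighboring genes whose protein products are widely used to sort blood cells. Single-cell RNA had been measured with Seq-Well, in which single cells settle into nanowells that each hold a bead with its own barcode, and each transcript is tagged with a unique molecular identifier (UMI). The mice were male DBA1/J, of which 6 had collagen-induced arthritis (CIA) and 4 were healthy controls. The CIA mice had received 100 µg of bovine collagen II in complete Freund's adjuvant and a booster in incomplete adjuvant on day 20, and the controls had received phosphate-buffered saline. Joint was sampled in 3 healthy and 5 CIA mice, and lung, muscle, skin, and spleen in 4 healthy and 6 CIA mice, 48 samples in all. Mice are called H (healthy) or S (CIA) with the number of their label. The sample titles carry the prefix 2CIA for H3, S1, S2, and S3 and CIA for the other 6 mice. All CIA mice of 2CIA had an arthritis score of 8 and those of CIA had scores of 2-3, 3-4, and 4-5, so that severity and experiment cannot be told apart among CIA mice.

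Ly6 proteins are small, cysteine-rich proteins that a glycosylphosphatidylinositol anchor holds on the outer face of the cell membrane. *Ly6c1* and *Ly6c2* encode the Ly6C antigen, whose high level marks the classical monocytes that leave the blood for inflamed tissue. *Ly6a* encodes Sca-1, a marker of progenitor cells that is also found on endothelial cells, mesenchymal cells, and activated lymphocytes. *Ly6e* encodes an interferon-induced protein found in many cell types, *Ly6d* marks cells committed to the B cell lineage and is also expressed in squamous epithelium, and *Ly6g* encodes the antigen that defines mouse neutrophils. Several members are known to be induced by interferons.

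The members lie within 397 kb of chromosome 15 (GRCm38 annotation): *Ly6d* at chr15:74762056-74763620, *Ly6e* at chr15:74955051-74959905, *Ly6a* at chr15:74994877-74998031, *Ly6c1* at chr15:75044018-75048830, *Ly6c2* at chr15:75108158-75111970, and *Ly6g* at chr15:75155240-75159126. *Ly6e* and *Ly6g* lie on the plus strand and the others on the minus strand. Promoter windows from 250 bases before to 50 bases after the start were at hand from RefSeq (GRCm38.p6) for *Ly6c1*, *Ly6c2*, and *Ly6g*. They are shown because these 3 genes have their highest levels in different cells in the data below. The letters GAGGAAGT, a core of the kind bound by PU.1 and other ETS factors, are in capitals. These letters were chosen with the sequences in view.

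*Ly6c1*, chr15:75048788-75049087, minus strand: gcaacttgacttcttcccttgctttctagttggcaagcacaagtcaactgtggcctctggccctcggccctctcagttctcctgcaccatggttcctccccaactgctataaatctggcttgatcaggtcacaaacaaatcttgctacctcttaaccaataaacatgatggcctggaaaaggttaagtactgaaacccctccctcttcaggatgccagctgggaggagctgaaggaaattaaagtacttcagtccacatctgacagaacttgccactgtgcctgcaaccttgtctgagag
*Ly6c2*, chr15:75111922-75112221, minus strand: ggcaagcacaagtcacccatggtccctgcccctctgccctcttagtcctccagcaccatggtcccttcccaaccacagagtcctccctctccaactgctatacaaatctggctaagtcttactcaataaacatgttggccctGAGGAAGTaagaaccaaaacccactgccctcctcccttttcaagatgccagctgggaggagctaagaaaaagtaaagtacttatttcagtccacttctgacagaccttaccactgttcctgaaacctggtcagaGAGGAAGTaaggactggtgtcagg
*Ly6g*, chr15:75155011-75155310, plus strand: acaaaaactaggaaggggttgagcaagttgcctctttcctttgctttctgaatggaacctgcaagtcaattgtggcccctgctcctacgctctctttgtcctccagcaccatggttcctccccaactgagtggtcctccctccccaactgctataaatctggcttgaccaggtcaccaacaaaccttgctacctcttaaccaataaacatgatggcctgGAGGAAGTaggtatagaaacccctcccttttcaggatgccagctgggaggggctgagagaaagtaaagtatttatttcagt

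The 8 letters were found 0 times in the *Ly6c1* window, 2 times in the *Ly6c2* window (108 bases before and 26 bases after the start), and 1 time in the *Ly6g* window (31 bases before the start), searched on both strands. Of 32851 promoter windows, 3.20% held them. The letters TTCNNNGAA, the site form of STAT factors, were found in 8.30% of windows, and the core of an interferon-stimulated response element in 3.44%. Neither was found in the 3 windows, which says only that these letters are not in these bases. The longest run shared by all 3 windows was GATGCCAGCTGGGAGG, a run that was taken from these same windows. The 0.0213% of windows that held it were 7 windows of 4 genes, these 3 and *Ly6a2*. The sequences also matter for counting, because Seq-Well reads come from transcript 3' ends. Over the last 300 bases of the transcripts, *Ly6c1* and *Ly6c2* were 93.8% identical and shared a run of 124 bases. Reads could therefore have been split between them by the alignment. *Ly6a* and *Ly6g* were 80.8% and 80.0% identical to *Ly6c1*, and *Ly6e* and *Ly6d* 50.6% and 48.3%.

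Levels below are in CPM, the UMIs of a gene per 1000000 UMIs of the same cells of a mouse. Annotated cells numbered 12096 (30 to 1989 per sample), with 17748 to 1645734 UMIs per sample and a median of 675 UMIs per cell, so that 1 UMI in a cell type of a mouse was often worth 10 CPM or more. Libraries shared 59 cell barcodes. UMIs of hemoglobin genes and of 12 granulocyte genes were found in cells of every label. The granulocyte genes moved with several results and are given beside them. The deposited cell type labels were used as they are. With all cells of a label pooled, 10 macrophage genes summed to 20570 CPM in macrophages, the 12 granulocyte genes to 408505 CPM in granulocytes, and 10 endothelial genes to 7724 CPM in endothelial cells, each the highest of all labels. The T cell genes did not follow their label as closely. In joint T cells, 10 T cell genes summed to 115 ± 55.7 CPM in healthy mice (SD, n = 3) and 276 ± 411 in CIA mice (n = 5), against 1758 ± 1002 and 2879 ± 1898 CPM for macrophage genes. Cells labelled spleen T cells had 1062 ± 847 CPM of T cell genes in healthy mice (n = 4) and 476 ± 91.6 in CIA mice (n = 4), less than cells labelled NK cells (2613 CPM, pooled). Cells labelled spleen monocytes had 20285 ± 8472 CPM of B cell genes in healthy mice (n = 4) and 9551 ± 2443 in CIA mice (n = 6).

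Each member had its own distribution over the cell types. *Ly6c1* was highest in stromal cells, with a median over mice of 944 CPM in muscle fibroblasts of CIA mice, 588 CPM in joint fibroblasts of healthy mice, and 519 CPM in joint endothelial cells of CIA mice. *Ly6a* had the same leading cells, with 1226 and 582 CPM in muscle fibroblasts of CIA and healthy mice and 492 CPM in joint fibroblasts of healthy mice. *Ly6c2* was highest in cells of myeloid labels and in cells labelled joint T cells of CIA mice, whose T cell genes were low, as given above. Its highest median was 1448 CPM in cells labelled dendritic cells of healthy muscle, from 36 UMIs in 38 cells. Cells of this label carried 120290 CPM of the granulocyte genes, with all cells of the label pooled. The next *Ly6c2* medians were 845 CPM in joint macrophages and 783 CPM in joint T cells of CIA mice. They were followed by 729 CPM in muscle granulocytes of healthy mice and 692 CPM in spleen monocytes of CIA mice. *Ly6g* was highest in granulocytes, at 337 CPM in joint of CIA mice, 269 CPM in joint of healthy mice, 229 CPM in healthy muscle, and 124 CPM in spleen of CIA mice. It was 54 CPM or less in every other group with at least 3 mice of at least 5 cells. Cells labelled neutrophils came from too few mice for such a median, and their *Ly6g* was 336 CPM with all cells of the label pooled, against 309 CPM in granulocytes. *Ly6d* was highest in the keratinocytes labelled Basal III cells of skin, at 2555 CPM in healthy and 1410 CPM in CIA mice, followed by spleen B cells at 942 and 782 CPM in CIA and healthy mice. *Ly6e* was the most even, with medians over 300 CPM in B cells, monocytes, NK cells, and T cells of spleen and a highest median of 650 CPM in spleen monocytes of CIA mice. The range over mice overlapped between neighbors in each order among the highest 6 groups of every member, so these orders are descriptions of medians.

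**Figure D1:**
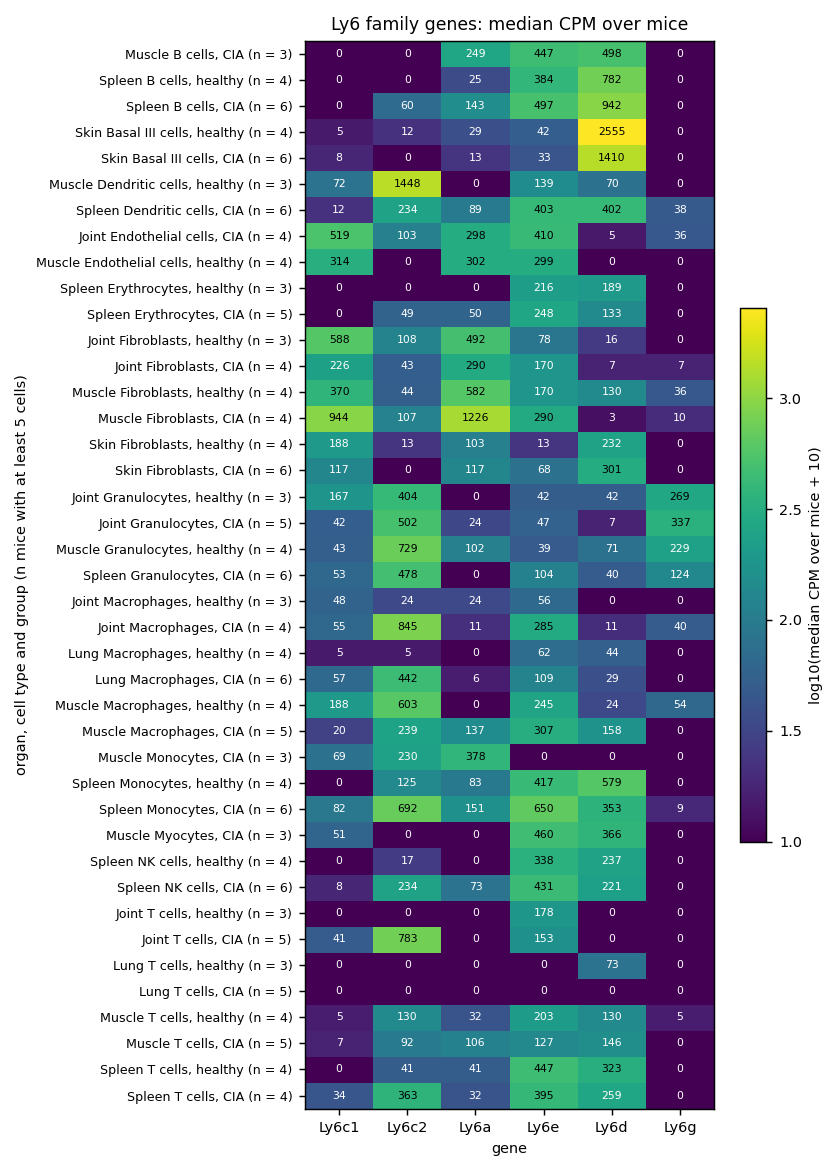
Median CPM over mice of the 6 members (columns) in each organ, cell type, and group with at least 3 mice of at least 5 cells (rows), colored by log10 of CPM + 10, with the CPM printed in each cell. *Ly6d* stands out in skin Basal III cells (2555 and 1410 CPM), *Ly6c1* and *Ly6a* in fibroblasts and endothelial cells, and *Ly6g* in granulocytes. *Ly6c2* stands out in cells of myeloid labels and in joint T cells of CIA mice.

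Likeness was measured by Pearson's r of log2(CPM + 10) over 51 groups of organ, cell type, and disease with at least 30 cells, among 9700 genes with at least 100 UMIs. The groups share libraries, mice, and free RNA, and the values are descriptions. *Ly6g* was most like *Cd177* (0.93), which encodes a neutrophil surface protein, *Lcn2* (0.90), and *G0s2* (0.89). *Ly6c2* was most like *I830127L07Rik* (0.82), *Alox5ap* (0.76), and *Ncf4* (0.74). *I830127L07Rik* is annotated as a transcribed pseudogene that lies between *Ly6c2* and *Ly6g* (chr15:75131377-75135128). *Ly6c1* was most like *Ltbp4* (0.85), *Cryab* (0.84), and *Sparcl1* (0.82), *Ly6a* like *Zcchc24* (0.71), *Fosb* (0.71), and *Mxra8* (0.69), *Ly6e* like *Ptpn18* (0.79), *Mef2c* (0.75), and *B2m* (0.74), and *Ly6d* like *Ralgps2* (0.66), *Rps19* (0.64), and *Arpc5l* (0.63). Among the members, the highest values were those of *Ly6c1* with *Ly6a* (0.56) and of *Ly6c2* with *Ly6g* (0.55), and the lowest was that of *Ly6c1* with *Ly6d* (-0.55). The near-identical *Ly6c1* and *Ly6c2* had a value of 0.23.

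CIA and healthy mice were then compared in each cell type of each organ with at least 3 mice per group. In macrophages, the tissue phagocytes that are partly renewed from blood monocytes, *Ly6c2* was higher in CIA mice in lung and joint and not in muscle. In lung macrophages *Ly6c2* was 0, 9.63, 0, and 32.6 CPM in H3, H4, H6, and H7, from 2 UMIs in all. It was 664, 420, 473, 243, 225, and 464 CPM in S1, S2, S3, S5, S6, and S8, from 116 UMIs. All 6 CIA mice lay above all 4 healthy mice, in both experiments. The log2 fold change was 5.00 (SE 0.62, adjusted p = 6.41e-05 by the edgeR quasi-likelihood test), and the ratio of the pooled rates was 47.1 (95% interval 12.7 to 393, counting error only). *Ly6c2* was thus 1 member called, where 6.51% of 538 genes tested were called, and it was the sole member that passed the filter on low counts. With 2 healthy UMIs it passed only through the CIA mice, where it is high. That share is therefore no neutral comparison for it. After each cell had been thinned to 400 UMIs, 0.335% ± 0.429 of healthy (n = 4) and 13.8% ± 5.05 of CIA lung macrophages (n = 6) held a *Ly6c2* UMI (0.764% and 18.9% without thinning). The pooled share in skin Basal III cells, which should lack the gene, was 0.297% in healthy and 0.115% in CIA mice after thinning (1.52% and 0.195% without), with median depths of 896 and 741 UMIs. The mean share in healthy lung macrophages was near these pooled skin shares. Healthy skin held 6 *Ly6c2* UMIs in all, so its cells cannot measure free *Ly6c2* RNA in lung. Healthy joint Basal III cells had 1.21% after thinning (2.78% without), from 1 UMI in 36 cells.

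The granulocyte genes summed to 483 ± 126 CPM in healthy and 5619 ± 4928 CPM in CIA lung macrophages, and *S100a8* had a log2 fold change of 4.19 (SE 0.63, adjusted p = 0.000391) by the edgeR test. Of the lung macrophages of CIA mice, 279 held a UMI of *S100a8* or *S100a9* and 114 did not. *Ly6c2* was found in 20.8% of the former and 23.7% of the latter, at 450 and 502 CPM. Of 230 healthy lung macrophages without these UMIs, 0.870% held *Ly6c2*. The fold change over the cells without *S100a8* and *S100a9* was 4.04 on the log2 scale (SE 0.82, adjusted p = 0.00131 by the edgeR test). The 12 monocyte genes listed summed to 3368 ± 373 CPM in healthy and 4468 ± 591 CPM in CIA lung macrophages, and the 10 macrophage genes to 26638 ± 1986 and 20797 ± 3363 CPM. Of 3 monocyte genes tested, *Plac8* was called higher (2.75 on the log2 scale) and *Chil3*, which alveolar macrophages also express, lower (-1.07). Of 4 macrophage genes tested, 0 were called. The part of these shifts in the *Ly6c2* difference was not tested. Within the experiment CIA alone, the log2 fold change of *Ly6c2* was 3.96 (SE 0.92, adjusted p = 0.0278), and 2CIA had 1 healthy mouse, at 0 CPM. The other members were low in lung macrophages. In the fit of all genes with a UMI, in which members removed by the filter were read, 0.193% of 16555 genes were called. *Ly6e* had mean levels of 57.6 ± 20.6 and 131 ± 73.0 CPM in healthy and CIA mice and was not called (log2 fold change 1.11, SE 0.60, adjusted p = 0.586 in the edgeR fit of all genes with a UMI). *Ly6c1* had 2 UMIs in healthy and 12 in CIA mice, *Ly6d* 9 and 6, *Ly6a* 1 and 4, and *Ly6g* 0 and 2.

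In joint macrophages *Ly6c2* was 24.2, 0, and 56.2 CPM in H3, H4, and H7, and 938, 55.2, 1207, and 753 CPM in S1, S3, S5, and S8. Only S3, with 1 UMI in 27 cells, lay among the healthy mice. The log2 fold change was 4.59 (SE 1.02, adjusted p = 0.0210 by the edgeR test), from 2 UMIs in healthy and 260 in CIA mice, a ratio of pooled rates of 35.6 (95% interval 9.74 to 295). *Ly6c2* was 1 member called, where 10.3% of 273 genes were, and here too it passed the filter only through the CIA mice. The call was lost without H3 (adjusted p = 0.0933), without H7 (adjusted p = 0.0745), and within the experiment CIA alone (log2 fold change 4.82, adjusted p = 0.0701), all by the edgeR test. Granulocyte genes were at 5475 ± 4307 CPM in healthy and 48362 ± 15370 CPM in CIA joint macrophages, and 241 of 243 cells of CIA mice held *S100a8* or *S100a9*, so that too few cells without them remained for a comparison. The monocyte genes summed to 2033 ± 776 CPM in healthy and 4072 ± 1261 CPM in CIA joint macrophages, and the macrophage genes to 17918 ± 5943 and 23017 ± 5782 CPM. *Plac8*, 1 of 2 monocyte genes tested, was called higher (3.20 on the log2 scale), and *C1qc*, a complement gene and 1 of 5 macrophage genes tested, lower (-1.59). The part of granulocyte RNA and of these shifts in the *Ly6c2* of joint macrophages was not tested. *Ly6e* was 121, 0, and 56.2 CPM in H3, H4, and H7, and 405, 165, 615, and 0 CPM in S1, S3, S5, and S8. Its log2 fold change of 2.60 (SE 0.81) was not called (adjusted p = 0.404 in the edgeR fit of all genes with a UMI). In that fit 0.0714% of 15400 genes were called. The other members had at most 14 UMIs in either group.

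In muscle macrophages *Ly6c2* was already high in healthy mice, at 1002, 525, and 574 CPM in H4, H6, and H7, and was 217, 239, 335, and 550 CPM in S2, S3, S5, and S6. The groups overlapped only in S6 and H6, and the difference was not called (log2 fold change -0.79, SE 0.45, adjusted p = 0.723 by the edgeR test). In these cells 0 of 6 members were called, and 0.183% of 545 genes (0.0685% of 14604 in the fit of all genes with a UMI). Granulocyte genes moved from 21793 ± 18101 CPM in healthy to 7506 ± 7081 CPM in CIA muscle macrophages, and their part in these values was not tested. *Ly6a* was not found in any of the 82 muscle macrophages of healthy mice and gave 38 UMIs in the 4 CIA mice compared, at 0 to 335 CPM. The exact 95% interval of the ratio of pooled rates had a lower end of 3.13, which covers counting error only and not the spread over mice. *Ly6a* was not called (adjusted p = 0.179 in the edgeR fit of all genes with a UMI), except without S3, the CIA mouse at 0 (adjusted p = 0.0437). *Ly6e* was 275 ± 82.0 and 368 ± 197 CPM (n = 3 and 4) and *Ly6d* 56.2 ± 60.8 and 154 ± 122 CPM, neither called.

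The disease effect on *Ly6c2* differed between organs. Tested as an interaction of organ and disease, it was larger in lung than in muscle macrophages by a log2 value of 5.81 (SE 0.79, adjusted p = 0.000172 by the edgeR test, where 0.496% of 807 genes were called), and by 5.63 (adjusted p = 0.0140) with the mouse as a block. Within the experiment CIA alone it was 4.72 (adjusted p = 0.0697 by the edgeR test). It was larger in joint than in muscle macrophages by 5.38 (SE 1.10, adjusted p = 0.0331, where 1.24% of 563 genes were called), but by 5.29 with an adjusted p of 0.0596 with the mouse as a block in the edgeR fit. Without H3, H4, H6, H7, or S1 in turn, the edgeR call for joint against muscle was lost as well (adjusted p 0.0528 to 0.212). Joint and lung differed by -0.35 (SE 1.09, adjusted p = 0.935 by the edgeR test, where 0.127% of 788 genes were called), and the size of this error leaves differences of several fold in either direction. Muscle T cells and muscle macrophages differed by 0.47 (adjusted p = 0.998 by the edgeR test). Macrophages of skin and spleen were too few for a test. In spleen 14 macrophages of 4 CIA mice held 21 *Ly6c2* UMIs and 4 of healthy mice held 0, and in skin S2 held all 4 *Ly6c2* UMIs of this cell type.

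**Figure D2:**
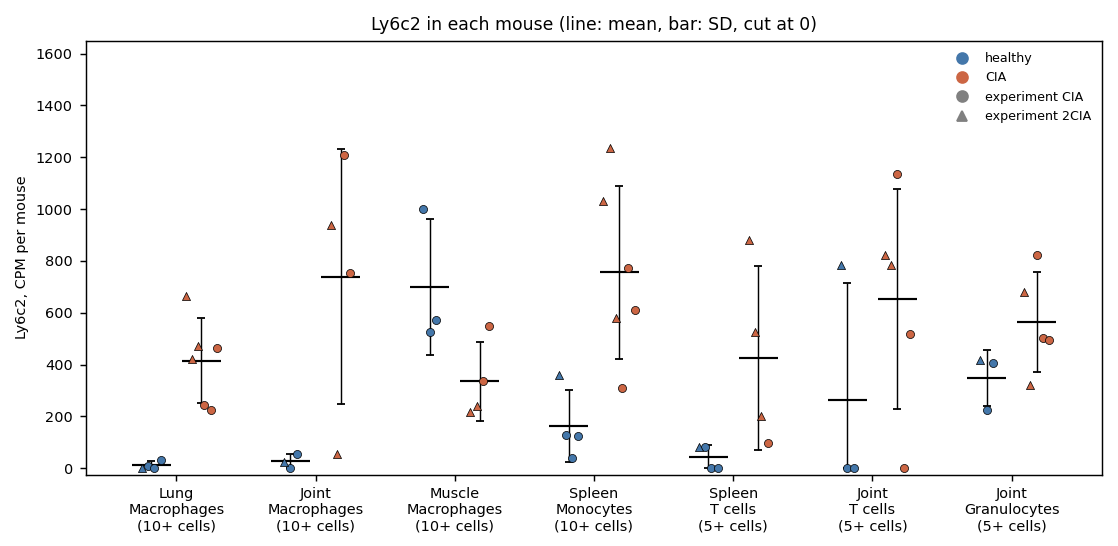
*Ly6c2* in CPM (vertical axis) in each mouse with at least the number of cells given under each cell type (horizontal axis), with healthy mice in blue, CIA mice in orange, circles for the experiment CIA and triangles for 2CIA. Lines are means and bars SDs, cut at 0. All 6 CIA mice lie above all healthy mice in lung macrophages (225 to 664 against 0 to 32.6 CPM), whereas in muscle macrophages the healthy mice are at 525 to 1002 CPM.

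Ly6C is classically read on monocytes. The cells labelled spleen monocytes carried more RNA of the B cell genes listed than of the monocyte genes listed, on average over the mice of either group. With all cells of a label pooled over organs, B cell genes summed to 14371 CPM in cells labelled monocytes. They summed to 5089 CPM in cells labelled B cells. Monocyte genes summed to 4836 CPM in cells labelled monocytes. The values below are thus of cells with this label, whose identity was not tested. *Ly6c2* in these cells was 361, 127, 38.7, and 122 CPM in H3, H4, H6, and H7, and ranged from 309 (S5) through a median of 692 to 1237 CPM (S2) in CIA mice. The other 5 CIA mice lay above all healthy mice. The log2 fold change was 2.13 (SE 0.52, adjusted p = 0.0354 by the edgeR test), and *Ly6c2* was 1 member called, where 6.36% of 456 genes were. The call was lost when any of S1, S2, S3, S6, H4, H6, or H7 was left out (adjusted p 0.0513 to 0.105) and within the experiment CIA alone (2.04, adjusted p = 0.324), both by the edgeR test. Of 12 monocyte genes listed, 6 were tested and 3 called higher, *Hp* (3.45), *Ms4a4c* (2.30), and *Plac8* (1.56 on the log2 scale). The 12 genes summed to 1979 ± 173 CPM in healthy and 6148 ± 1591 CPM in CIA mice. At the same time the B cell genes in these cells were lower in CIA mice, as given above, granulocyte genes moved from 891 ± 142 to 11475 ± 9445 CPM, and *Ly6d*, the member that marks B cells, was 630 ± 230 CPM in healthy and 332 ± 126 CPM in CIA mice (log2 fold change -1.21, SE 0.36, adjusted p = 0.0674 by the edgeR test). The part of B cell and granulocyte RNA in the difference of *Ly6c2* was not tested. *Ly6c1* had 1 UMI in healthy and 24 in CIA mice (ratio of pooled rates 11.1, 95% interval 1.80 to 455), which was not called (adjusted p = 0.503 in the edgeR fit of all genes with a UMI). *Ly6e* was 309 to 827 CPM in healthy and 449 to 918 CPM in CIA mice and *Ly6a* 103 ± 104 and 170 ± 81.3 CPM, neither called. The disease effect on *Ly6c2* in cells labelled spleen monocytes differed from that in lung macrophages by -2.94 (SE 0.96), which was not called (adjusted p = 0.300 by the edgeR test).

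In T cells, *Ly6c2* is known as a marker of memory and effector cells and *Ly6a* as one of activation. In muscle T cells *Ly6a* was 53.2, 43.6, and 21.1 CPM in H4, H6, and H7 and 94.2, 106, and 247 CPM in S2, S3, and S6. The groups did not overlap, but the log2 fold change of 2.08 (SE 0.63) was not called (adjusted p = 0.508 by the edgeR test). How many of all genes lay without overlap in muscle T cells was not counted. In these cells 0 of 6 members were called, and 0.0511% of 1957 genes. *Ly6c2* was 104 ± 54.3 and 98.8 ± 45.8 CPM (n = 3 and 3, adjusted p = 0.943), *Ly6e* 219 ± 51.1 and 315 ± 180 CPM (adjusted p = 0.953), and *Ly6d* 180 ± 116 and 178 ± 72.5 CPM (adjusted p = 0.953), all by the edgeR test. The T cell genes themselves were at 599 ± 392 CPM in healthy and 1872 ± 545 CPM in CIA muscle T cells. In cells labelled spleen T cells *Ly6c2* was 82.7, 83.3, 0, and 0 CPM in H3, H4, H6, and H7 and 880, 524, 201, and 95.9 CPM in S1, S2, S3, and S5. All 4 CIA mice lay above the healthy mice, and the log2 fold change was 3.48 (SE 0.80, adjusted p = 0.0115 in the edgeR fit of all genes with a UMI, where 0.15% of 14622 genes were called). The ratio of pooled rates was 8.14 (95% interval 2.71 to 40.1), from 3 and 106 UMIs. DESeq2 did not call it (adjusted p = 0.998), nor did edgeR with other scalings, with the experiment as a term, or without S1, S2, H6, or H7 in turn (adjusted p 0.0545 to 0.863). Of the CIA cells with this label, 177 held *S100a8* or *S100a9* and 8 did not, and all 106 UMIs lay in the former. With so few cells left over, this split cannot place the UMIs. Macrophage genes in cells labelled spleen T cells were at 502 ± 311 CPM in healthy and 1941 ± 846 CPM in CIA mice. The part of myeloid RNA in this difference was not tested. In joint T cells *Ly6c2* was 784, 0, and 0 CPM in H3, H4, and H7, all 11 healthy UMIs being in 1 cell, and 822, 783, 1135, 0, and 519 CPM in S1, S3, S5, S6, and S8. The groups overlapped, and the log2 fold change of 1.83 (SE 0.84) was not called (adjusted p = 0.635 in the edgeR fit of all genes with a UMI, where 0.00717% of 13949 genes were called). Lung T cells, with 0.0251% of 7953 genes called, held 1 *Ly6c2* UMI in all and none of *Ly6c1*, *Ly6a*, or *Ly6g*.

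**Figure D3:**
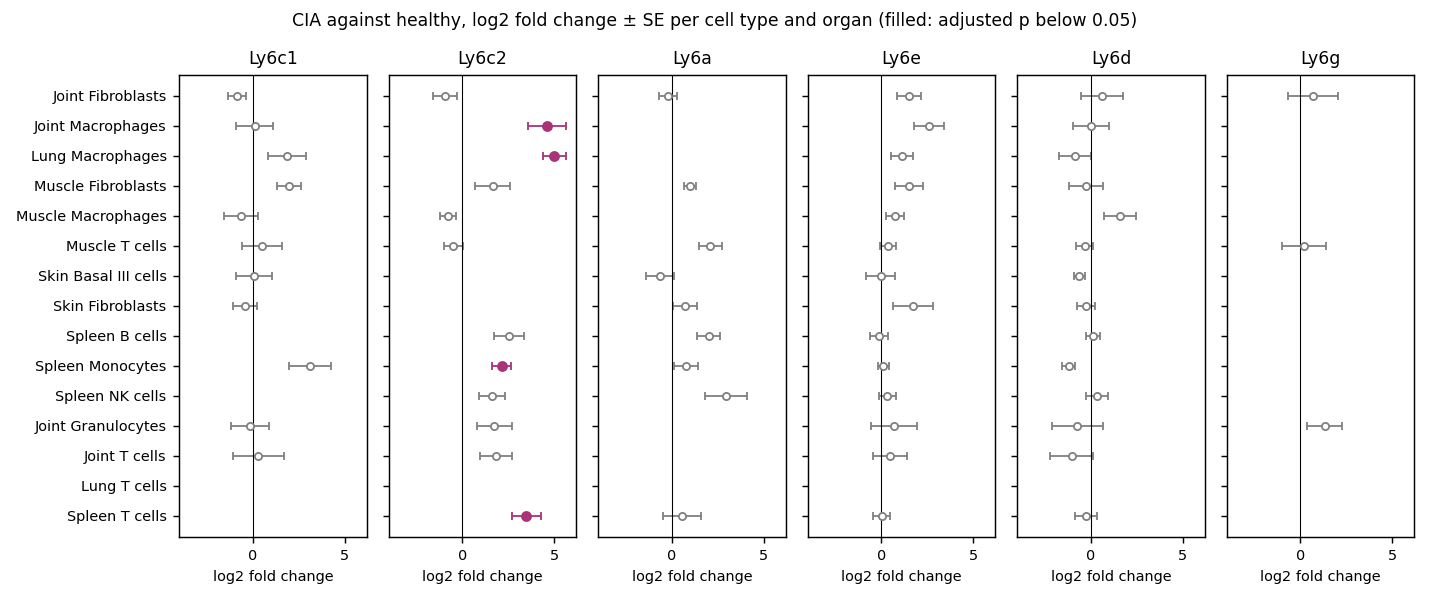
Log2 fold change of CIA against healthy mice (horizontal axis) ± SE for each member (panels) in each cell type and organ (rows). Filled points have an adjusted p below 0.05 by the edgeR test, and members with under 10 UMIs or with 0 UMIs in a group are not drawn. Only *Ly6c2* has filled points, in joint macrophages (4.59), lung macrophages (5.00), spleen monocytes (2.13), and spleen T cells (3.48).

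Granulocytes carried *Ly6g* and *Ly6c2* in both groups. In joint granulocytes *Ly6g* was 292, 0, and 269 CPM in H3, H4, and H7, from 24, 5, and 7 cells, and 337, 0, 416, 502, and 47.3 CPM in S1, S3, S5, S6, and S8. The groups overlapped over most of their range. The log2 fold change was 1.31 (SE 0.97, adjusted p = 0.710 in the edgeR fit of all genes with a UMI). *Ly6c2* was 417, 225, and 404 CPM in the healthy and 680, 320, 823, 502, and 497 CPM in the CIA mice (log2 fold change 1.74, SE 0.95, adjusted p = 0.710). In joint granulocytes 0 of 6 members were called, and 0 of 168 genes by edgeR or DESeq2 (12 had an unadjusted p below 0.05 by edgeR). None of the members passed the filter there. Muscle granulocytes were 184 cells in healthy and 16 in CIA mice, and spleen granulocytes 12 and 233, too few in 1 group for a test. In healthy muscle granulocytes *Ly6c2* had a median of 729 CPM and was highest in H7, at 934 CPM, and *Ly6g* was 233, 226, 146, and 334 CPM in H3, H4, H6, and H7. In spleen granulocytes of CIA mice *Ly6c2* ranged from 289 (S3) through a median of 478 to 769 CPM (S2), and *Ly6g* from 0 through 124 to 380 CPM.

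Endothelial cells, which line blood vessels, and fibroblasts carried *Ly6c1* and *Ly6a*. In joint endothelial cells with at least 5 cells per mouse, *Ly6c1* was 613 and 255 CPM in H3 and H4 and 624, 293, 413, and 695 CPM in S1, S3, S5, and S6. *Ly6a* was 374 and 128 CPM in the same healthy mice and 286, 0, 310, and 649 CPM in the CIA mice. The groups overlapped for both genes, and with 2 healthy mice no test was made. In muscle endothelial cells *Ly6c1* was 1226, 195, 433, and 183 CPM in H3, H4, H6, and H7, and 268 and 675 CPM in S1 and S5. *Ly6a* was 230, 315, 289, and 367 CPM in the healthy mice and 536 and 620 CPM in S1 and S5, above the 4 healthy mice, but 132 of the 146 endothelial cells of CIA muscle came from S5. *Ly6e* was 322 CPM in S5 and 153 to 458 CPM in the healthy mice. Skin had 10 endothelial cells in healthy and 30 in CIA mice, and lung 9 and 5.

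In muscle fibroblasts *Ly6c1* was 309, 459, 0, and 430 CPM in H3, H4, H6, and H7 and 1158, 481, 972, and 915 CPM in S1, S2, S5, and S6. *Ly6a* was 574, 995, 590, and 430 CPM in these healthy mice and 744, 1374, 1079, and 1414 CPM in the CIA mice. *Ly6e* was 132 to 230 CPM in healthy and 248 to 468 CPM in CIA mice. The nearest *Ly6c1* values of the 2 groups, those of S2 and H4, came from 7 and 6 UMIs. How many of all genes lay without overlap in these mice was not counted. CIA mice lay above healthy mice without overlap for *Ly6c1* and *Ly6e*, and 3 of 4 did for *Ly6a*. None was called: the log2 fold changes were 1.97 (SE 0.65, adjusted p = 0.666) for *Ly6c1* and 1.50 (SE 0.74, adjusted p = 0.666) for *Ly6e* in the edgeR fit of all genes with a UMI, and 0.97 (SE 0.33, adjusted p = 0.355) for *Ly6a*, and 0 of 173 genes were called in the filtered fit by edgeR or DESeq2 (11 had an unadjusted p below 0.05 by edgeR), and 0.0117% of 17122 in that of all genes with a UMI. In joint fibroblasts *Ly6c1* was 617, 588, and 569 CPM in H3, H4, and H7 and 350, 102, and 532 CPM in S1, S3, and S5, without overlap, and was not called (log2 fold change -0.87, SE 0.49, adjusted p = 0.409 by the edgeR test). *Ly6c2* was also lower without overlap, at 103 to 285 CPM in healthy and 14.6 to 88.5 CPM in CIA mice, and not called (adjusted p = 0.719 in the edgeR fit of all genes with a UMI). With only 3 mice per group, how many of all genes lay without overlap in joint fibroblasts was not counted either. *Ly6a* had a median of 492 CPM in healthy and of 419 CPM in CIA mice, with overlap (n = 3 and 3, adjusted p = 0.849 by the edgeR test). *Ly6e* was 78.2 ± 16.5 CPM in healthy mice (SD, n = 3) and 130, 43.7, and 287 CPM in S1, S3, and S5, so that 2 of 3 CIA mice lay above the healthy mice. Its log2 fold change of 1.49 (SE 0.65) was not called (adjusted p = 0.594 in the edgeR fit of all genes with a UMI, where 0.52% of 19235 genes were called). In joint fibroblasts 0 of 6 members were called, and 1.68% of 1014 genes. Whether the effect on *Ly6c1* differs between joint and muscle fibroblasts was not tested.

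**Figure D4:**
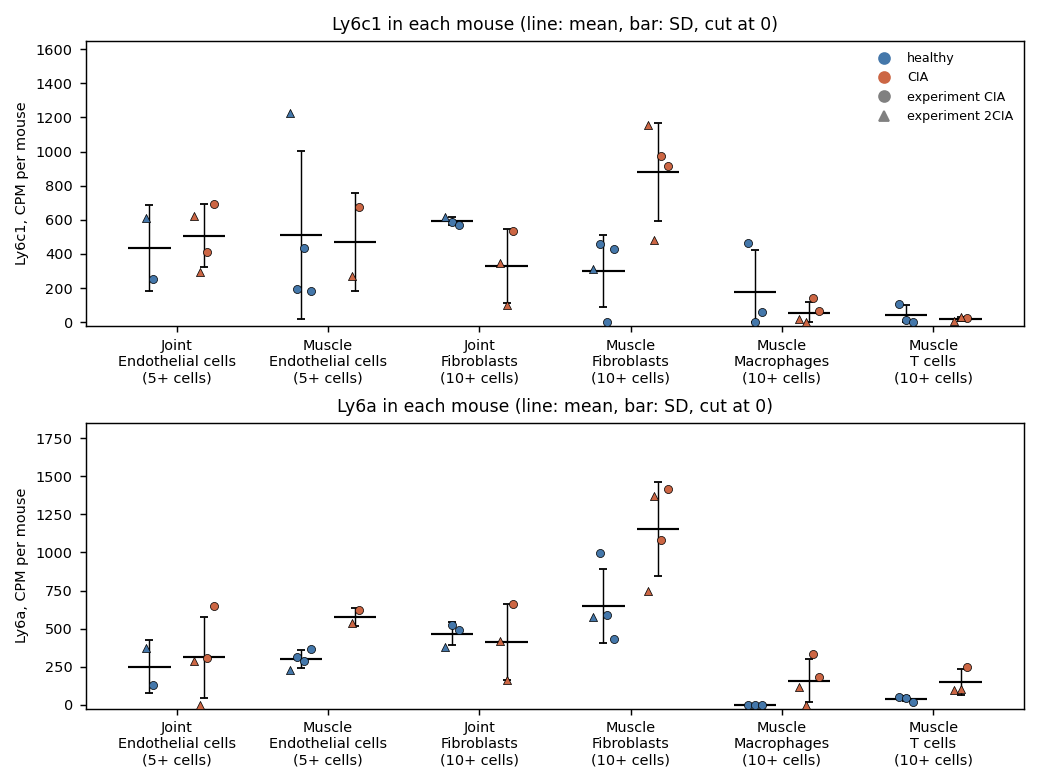
*Ly6c1* (top) and *Ly6a* (bottom) in CPM in each mouse with at least the number of cells given under each cell type, with healthy mice in blue, CIA mice in orange, circles for the experiment CIA and triangles for 2CIA. Lines are means and bars SDs, cut at 0. CIA mice lie higher in muscle fibroblasts (*Ly6c1* 481 to 1158 against 0 to 459 CPM), and *Ly6a* is at 0 CPM in the macrophages of all 3 healthy muscles shown.

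In Basal III cells and fibroblasts of skin and in B and NK cells of spleen 0 members were called. In these filtered edgeR fits 0 genes were called at all (71, 31, 40, and 11 had an unadjusted p below 0.05), and DESeq2 called 0 to 2 genes. In the fits of all genes with a UMI, the shares called were 0.0818%, 0.0766%, 0.0831%, and 0.0971% in the same order. *Ly6d* in skin Basal III cells was 2871, 699, 2238, and 3426 CPM in H3, H4, H6, and H7 and ranged from 1183 through a median of 1410 to 2218 CPM in CIA mice. The log2 fold change was -0.62 (SE 0.31, adjusted p = 0.848 by the edgeR test), with overlap through H4. In spleen B cells *Ly6d* was 801 ± 324 and 877 ± 348 CPM (n = 4 and 6) and *Ly6e* 483 ± 300 and 448 ± 233 CPM. *Ly6c2* in spleen B cells was 0, 19.5, 0, and 0 CPM in H3, H4, H6, and H7 and 0 to 143 CPM in CIA mice, and *Ly6a* 0 to 97.2 and 0 to 179 CPM. 5 of 6 CIA mice lay above all healthy mice for either gene, S3 with 24 cells being at 0, and neither was called (adjusted p = 0.649 for both in the edgeR fit of all genes with a UMI). In spleen NK cells *Ly6c2* was 53.5 ± 85.9 and 199 ± 88.7 CPM (n = 4 and 5, adjusted p = 0.661).

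In sums over whole organs, a lower number of cells of a type and less RNA per cell cannot be told apart. In lung, where 99.1% of the *Ly6c2* UMIs of CIA mice came from macrophages, the log2 fold change of *Ly6c2* was 4.53 (SE 0.60, adjusted p = 0.000140 by the edgeR test, where 4.96% of 686 genes were called). In spleen all 6 CIA mice lay above all 4 healthy mice for *Ly6c2* (156 to 602 against 21.0 to 89.8 CPM). The same held for *Ly6c1* (19.8 to 59.8 against 0 to 13.7 CPM) and *Ly6g* (7.10 to 80.0 against 0 to 4.86 CPM). These 2 genes had only 3 and 2 UMIs in healthy spleen. How many of all genes lay without overlap in spleen was not counted. *Ly6c1* (log2 fold change 3.07, SE 0.82, adjusted p = 0.0258) and *Ly6g* (3.78, SE 0.87, adjusted p = 0.00329) were called in the edgeR fit of all genes with a UMI, where 0.747% of 23012 genes were called, but not by DESeq2 (adjusted p = 0.124 and 0.228). Without S1, H4, or H6 in turn, the edgeR call of *Ly6c1* was lost (adjusted p 0.129 to 0.395). *Ly6c2* was not called in the filtered edgeR fit (2.65, SE 0.56, adjusted p = 0.0916, where 0.137% of 2927 genes were called) but was by DESeq2 (adjusted p = 0.000757). *Ly6g* rested on 2 UMIs in healthy and 93 in CIA mice, 69 of them from S2, and was not called without S2 (adjusted p = 0.470 by edgeR). Granulocytes held 62.4% of the *Ly6g* UMIs of CIA spleen and were 10.1% of its cells, against 1.19% of the cells of healthy spleen. With equal weight to B cells, monocytes, and NK cells, *Ly6c2* was 73.6 CPM in healthy and 342 CPM in CIA spleen and *Ly6c1* 8.20 and 39.1 CPM.

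In whole muscle 0 of 6 members were called, and the log2 fold changes of *Ly6c2* and *Ly6g* were negative and those of *Ly6c1* (0.43), *Ly6a* (0.86), *Ly6e* (0.70), and *Ly6d* (0.83) positive. *Ly6c2* was 197, 296, 298, and 349 CPM in H3, H4, H6, and H7 and 59.5 to 184 CPM in CIA mice, without overlap, and was not called (log2 fold change -1.29, SE 0.40, adjusted p = 0.587 by the edgeR test, where 0.055% of 3634 genes were called, and 0.25% of 25197 in the fit of all genes with a UMI). Granulocytes held 45.2% of the *Ly6c2* UMIs of healthy muscle. They were 17.4% of the cells of healthy muscle and 0.456% of those of CIA muscle. Cells labelled myocytes were 9.18% and 43.0%, and 1492 of the 1507 in CIA muscle came from S6. The part of these cell shares in the whole-muscle values was not tested. *Ly6g* was 17.9 to 93.4 CPM in healthy and 0 to 47.4 CPM in CIA muscle and was not called (-1.96, SE 0.85), except without S6 (-2.72, adjusted p = 0.0473 by the edgeR test). In joint *Ly6d* was the sole member called (log2 fold change -2.40, SE 0.59, adjusted p = 0.0206 in the edgeR fit of all genes with a UMI, where 0.274% of 24079 genes were called). That value rested on H4, at 591 CPM, against 83.5 and 0 CPM in H3 and H7 and 0 to 59.5 CPM in CIA mice, and 85.7% of the *Ly6d* UMIs of healthy joint came from cells labelled Basal III. Without H4 the log2 fold change was -0.08 (adjusted p = 0.961 by edgeR), and without S3 or H7 the call was lost as well (adjusted p = 0.0793 and 0.435). *Ly6c1* was 355 ± 24.5 CPM in healthy and 184 ± 73.4 CPM in CIA joint, without overlap, and was not called (adjusted p = 0.515 by the edgeR test). How many of all genes lay without overlap in whole muscle and joint was not counted.

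Other genes of the family and of interferon response were read from lists. Of 33 other genes of the Ly6/uPAR family, 26 were in the count table, 2 of these with 0 UMIs in annotated cells, and none was called in any filtered fit, in which at most 2 were tested. *Plaur*, the urokinase receptor gene, had 5181 UMIs, *Cd59a*, which encodes a complement inhibitor, 271, and *Lypd3* 152, of which 127 were in skin Basal III cells. Of 20 interferon response genes, 2 were tested in joint macrophages and both were called higher, *Ifi27l2a* (3.49) and *Ifitm3* (2.14 on the log2 scale). Both were also called in lung macrophages (4.15 and 2.62), and 2 of 3 tested in spleen monocytes (3.56 and 1.87). In muscle macrophages *Ifi27l2a* was called (3.92, SE 0.50, adjusted p = 0.00459 by the edgeR test), the 1 of 2 tested, while *Ly6c2* was not. In muscle T cells *Ifi27l2a* was also the 1 gene called of 3 tested (3.03), and in joint fibroblasts the 1 of 2 tested (2.58, SE 0.46, adjusted p = 0.0282 by the edgeR test). The shares of all genes called in these fits were those given above, 10.3% in joint macrophages, 6.51% in lung macrophages, 6.36% in spleen monocytes, 1.68% in joint fibroblasts, 0.183% in muscle macrophages, and 0.0511% in muscle T cells. Interferon response genes were not called in muscle fibroblasts and joint granulocytes (0 of 2 tested in each) or in B, NK, and T cells of spleen and Basal III cells and fibroblasts of skin (0 of 1 in each), and 0 were tested in T cells of joint and lung.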

How the data were processed

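Cells had been profiled with Seq-Well in 48 samples of 5 organs from 10 mice. Per the study's methods the authors aligned reads with STAR and counted UMIs per gene and cell with the Drop-seq tools. The submitters' processing notes name the builds GRCh38 and mm9 and the methods GRCm38. The authors deposited raw UMI counts, not normalized, with a cell type label for 12096 of 13240 cells. The 1144 unlabelled cells entered no comparison. The authors had removed cells with very many transcripts as possible doublets, the highest annotated cell here had 6239 UMIs, and no doublet caller was run. UMIs were summed per mouse, organ, and cell type, since the mouse is the replicate. Sums of mice with at least 10 cells were compared where each group had 3 mice, and with at least 5 cells for macrophages, endothelial cells, T cells, and granulocytes. Tests between CIA and healthy mice used edgeR 4.0.16 (R 4.3.3) and its quasi-likelihood F statistic, with TMM factors, its default filter on low counts, Benjamini-Hochberg adjustment over all genes tested, and a threshold of 0.05. For members below that filter, values come from a fit of all genes with a UMI. *Ly6c2* passed the filter through the CIA mice in lung and joint macrophages, spleen monocytes, and whole lung. Where a member is said to lie without overlap between groups, the share of all genes that did so was not counted. Differences of disease effects were tested as interactions, in which the same mouse gives both populations. There the block among the alternatives was the mouse itself. The alternatives were DESeq2 1.42.0, other scalings, no filter, the experiment as a term or 1 experiment alone, the mouse number as a block, each mouse left out, *Ly6c1* and *Ly6c2* summed, and cells with *S100a8* or *S100a9* left out. The fits were tested on simulated data. Ratios with 3 or fewer UMIs in healthy mice carry exact 95% intervals, which cover counting error only. The genes named were the 6 members, the 3 genes most like each, and at most the 3 largest changes called in a list. *Plaur*, *Cd59a*, and *Lypd3* were named after their values were seen. The members and lists were chosen with earlier results of these data known.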

Additional observations from a re-analysis of the deposited data

Results flagged for a closer look

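In 4 of 112 groups tested, of 4 to 10 mice each, 1 mouse stood far from the others. The measure was the gap to the nearest mouse over the range of the group. Its cut-offs give about 1 in 20 by chance only for independent, normally distributed values. Sparse counts from shared mice are not such values, so the rate by chance is not known here. *Ly6d* was 193 CPM in muscle fibroblasts of S6, from 19 UMIs in 85 cells, and 5.09 CPM or less in the other CIA mice. *Ly6e* was 0 CPM in the 24 spleen B cells of S3, with the nearest CIA mouse at 447 CPM. *Ly6c1* was 190 CPM in spleen T cells of S1, from 11 UMIs, with the nearest at 35.7 CPM. *Ly6c2* was 46.2 CPM over all skin cells of S2, from 11 UMIs, and 0 in the other CIA mice.

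The disease effect on *Ly6c2* differed between organs by the interaction test of edgeR. It was larger by 5.81 on the log2 scale in lung than in muscle macrophages (adjusted p = 0.000172), and by 5.38 in joint than in muscle macrophages (adjusted p = 0.0331). The call for joint against muscle was lost with the mouse as a block and without H3, H4, H6, H7, or S1 in turn. Neither difference was called within the experiment CIA alone.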

How the results depend on the processing

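The call of *Ly6c2* in lung macrophages kept its direction and its side of the threshold under every alternative run (log2 fold change 3.96 to 7.01). Other counts of members called changed, and the cause was not tested. Within the experiment CIA alone, 0 members were called in joint macrophages, spleen monocytes, whole joint, whole spleen, and both macrophage interactions with muscle. With the mouse number as a replicate block, 0 were called in spleen monocytes, whole lung, and whole spleen. CIA and healthy mice share only the numbers 3 and 6, which mark no pairing. In the interactions the block was the mouse itself, which gave both populations, and 0 were then called in joint against muscle macrophages. With DESeq2, 0 were called in spleen T cells and whole joint and 1 in whole spleen. With RLE factors or plain library sizes, 0 were called in spleen T cells, and with the experiment as a term 0 in spleen T cells, whole joint, and whole spleen. With *Ly6c1* and *Ly6c2* summed, 0 were called in joint macrophages and 1 in whole spleen. Without cells that held *S100a8* or *S100a9*, only 2 joint macrophages of CIA mice remained, so that the fit could not decide on a call. With 1 mouse left out in turn, the count ranged from 0 to 1 in joint and muscle macrophages, spleen monocytes, spleen T cells, whole joint, whole muscle, and joint against muscle macrophages, and from 1 to 3 in whole spleen. The level of *Ly6a* in muscle fibroblasts of CIA mice was 855 CPM as a mean over cells, against 1226 CPM. No called direction was reversed. *Ly6e* in joint macrophages, not called, had a log2 fold change of 2.60. Without cells that held *S100a8* or *S100a9* it was -1.78 (SE 3.64), from 2 cells of CIA mice with 0 *Ly6e* UMIs. Cells with few UMIs limit what can be seen: a member with 3 UMIs or fewer in a group has no stable fold change. Over all genes, the edgeR fits by cell type called 111 genes and 321 without the filter, and those of whole organs 43, against 411 without the filter and 158 by DESeq2. Within the experiment CIA alone, 8 genes were called by cell type (93 in the same populations otherwise) and 9 in whole organs. The interaction fits called 12 genes, 33 without the filter, 22 with the block, and 1 within the experiment CIA alone, and the fits with at least 5 cells 3 genes and 25 without the filter.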
